A study of Mus musculus with 2 samples.

Results

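The genes described here encode the machinery that copies chromosomal DNA. They are 39 genes of the 32285 listed for each library, taken by symbol from the deposited gene lists, and each of the 39 symbols was found once. They were measured in mouse embryonic stem cells of the inbred strain C3H/HeSn-Paf/J, by droplet single-cell RNA sequencing, which counts captured mRNA molecules through unique molecular identifiers (UMIs). The cells came from 9 embryonic stem cell lines, 3 each derived independently from XX, XO and XY embryos, and all 9 lines were mixed before capture. All cells had been grown in serum with leukaemia inhibitory factor on gelatin and irradiated embryonic fibroblasts, called feeders, which were partly captured with them. Time 1 was an early passage, and time 2 came 10 passages later. Each time point was 1 library, with no replicate, and the deposited counts used here do not link a cell to its line, so no difference was tested and no p-value is given. All intervals below are exact 95% intervals that cover counting error only, not the spread between cultures. The questions were how the levels of the replication genes differed between cell states, between the time points, and between cells with and without gained chromosomes.

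Replication begins at origins. The origin recognition complex (with Orc1 and Orc6), Cdc6 and Cdt1 load pairs of the ring-shaped helicase MCM2-7 on DNA in G1 phase, and the helicase stays inactive until S phase. Cdc45, the 4-subunit GINS complex and Mcm10 then turn it into the active helicase that opens the fork. Polymerase alpha with primase lays down primers, the clamp loader (Rfc1 to Rfc5) places the sliding clamp Pcna, polymerases epsilon and delta extend the strands, and Fen1 and Lig1 join the lagging-strand pieces. Many of these genes are textbook targets of E2F transcription factors, which are held back by Rb proteins until late G1. Embryonic stem cells are known for short G1 phases and a large share of cells in S phase.

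The libraries held 1735810403 UMIs at time 1 and 1843588321 at time 2, and 23162 and 25424 cells remained after filtering and removal of doublets (droplets with more than 1 cell). Median depth was 44363 UMIs per cell at time 1 and 50343.5 at time 2, and the filtered libraries shared 192 cell barcodes. Cells of both libraries were clustered together without the 39 genes and without the other cell cycle genes listed here. Levels are given in CPM, a gene's UMIs in a group of cells per 1000000 UMIs of that group, and the summed level is that of the 39 genes together. Since the reads come from 3′ ends, levels were not scaled by transcript length. The clusters without a marker of another cell type among their 10 leading genes and with raised pluripotency markers were taken as pluripotent stem cell-like, 8958 cells at time 1 and 15232 at time 2. Named by leading gene, they had median log2 folds of pluripotency markers of 0.10 (Gm9), 0.58 (Pramel7), 0.06 (Zp3) and 0.40 (Halr1). Trophoblast (0.18) and germ cell markers (0.36) had higher medians in the Gm9-led cluster, as had neural markers (0.60) in the Halr1-led one. All 12 markers of pluripotent stem cells were above 0 in the pluripotent stem cell-like cells, with summed levels of 10670 CPM at time 1 and 7102 CPM at time 2. Dppa5a alone made up 8399 and 4529 CPM of these sums, and the lower sum at time 2 was due to it. Pou5f1 stood at 712 CPM at time 1 and 808 CPM at time 2. The 9 feeder markers were also all above 0, but summed to only 9.50 and 12.5 CPM, against 4405 and 3753 CPM in the fibroblast-like cells.

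The start of each gene gives a sequence that can be set beside these levels. RefSeq (GRCm38.p6) windows, from 250 bases before to 50 bases after a start site, were matched for 31 of the 39 genes. The windows were searched on both strands for 4 core E2F motifs, TTTCCCGC, TTTCGCGC, TTTGCCGC and TTTGGCGC. At least 1 of them lay in a window of 14 of the 31 genes (45.2%), against 704 of all 27025 genes with a window (2.60%). Some genes had more than 1 window. Of single windows, 14 of 36 (38.9%) held a motif, against 744 of all 32851 (2.26%). More than 1 motif was found in 5 of the 31 genes, against 29 of all genes. The genes with a motif were Mcm3, Mcm5, Mcm6, Mcm7, Cdc6, Cdt1, Orc1, Lig1, Rfc3, Pold1, Pold3, Pola1, Pole2 and Gins3. A motif match is a description of the letters and not a binding site, and a window without one says only that these letters are not in it. The 6 windows shown are those of the genes whose levels went most closely with the other replication genes from cell to cell (below) among the genes with a motif. Capitals mark the motif or its reverse complement. The windows are Mcm3 (chr1:20820263-20820562, minus strand), Mcm5 (chr8:75109259-75109558, plus strand), Mcm6 (chr1:128359656-128359955, minus strand), Cdc6 (chr11:98907901-98908200, plus strand), Lig1 (chr7:13278576-13278875, plus strand) and Mcm7 (chr5:138171834-138172133, minus strand), each written 5′ to 3′ on the gene's strand.
Mcm3: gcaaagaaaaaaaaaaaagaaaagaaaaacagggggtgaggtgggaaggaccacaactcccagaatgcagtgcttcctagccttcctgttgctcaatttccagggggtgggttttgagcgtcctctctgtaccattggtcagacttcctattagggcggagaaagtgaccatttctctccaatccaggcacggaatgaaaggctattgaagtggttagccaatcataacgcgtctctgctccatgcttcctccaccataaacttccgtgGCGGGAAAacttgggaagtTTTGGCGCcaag
Mcm5: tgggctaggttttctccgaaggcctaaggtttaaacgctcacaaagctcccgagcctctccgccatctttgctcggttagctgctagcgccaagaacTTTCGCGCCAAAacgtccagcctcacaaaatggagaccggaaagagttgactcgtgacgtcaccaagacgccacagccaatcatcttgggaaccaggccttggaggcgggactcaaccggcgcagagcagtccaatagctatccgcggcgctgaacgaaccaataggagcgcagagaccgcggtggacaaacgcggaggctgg
Mcm6: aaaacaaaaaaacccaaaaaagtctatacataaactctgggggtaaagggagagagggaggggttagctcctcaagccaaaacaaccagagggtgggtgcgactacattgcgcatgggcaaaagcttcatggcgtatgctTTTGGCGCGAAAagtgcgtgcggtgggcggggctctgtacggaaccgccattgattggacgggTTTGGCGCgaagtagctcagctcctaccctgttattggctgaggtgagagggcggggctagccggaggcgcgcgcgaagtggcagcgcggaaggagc
Cdc6: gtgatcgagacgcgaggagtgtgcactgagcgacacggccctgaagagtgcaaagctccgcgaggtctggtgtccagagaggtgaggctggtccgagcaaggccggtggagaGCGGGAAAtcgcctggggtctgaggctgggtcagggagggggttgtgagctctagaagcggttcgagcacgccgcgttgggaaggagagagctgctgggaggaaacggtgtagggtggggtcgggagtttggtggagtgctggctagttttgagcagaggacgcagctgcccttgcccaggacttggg
Lig1: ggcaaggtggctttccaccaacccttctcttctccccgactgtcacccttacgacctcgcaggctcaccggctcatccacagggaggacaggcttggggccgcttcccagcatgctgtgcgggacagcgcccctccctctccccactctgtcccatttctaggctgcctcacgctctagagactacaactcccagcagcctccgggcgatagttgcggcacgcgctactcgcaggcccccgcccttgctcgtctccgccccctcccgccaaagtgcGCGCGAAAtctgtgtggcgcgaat
Mcm7: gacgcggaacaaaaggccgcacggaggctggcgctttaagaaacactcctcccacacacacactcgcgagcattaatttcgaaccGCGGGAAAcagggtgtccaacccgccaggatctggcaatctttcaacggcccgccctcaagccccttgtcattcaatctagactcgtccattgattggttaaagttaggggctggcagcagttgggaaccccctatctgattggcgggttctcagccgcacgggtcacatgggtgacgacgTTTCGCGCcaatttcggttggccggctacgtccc
In Mcm5 and Mcm6 a forward and a reverse motif overlapped, in the run TTTCGCGCCAAA of Mcm5 and TTTGGCGCGAAA of Mcm6. Counted from the start site of the window shown, the overlapping pair began at position -153 in Mcm5 and at -110 in Mcm6, and Mcm6 had a further motif at -47. In Mcm3 both motifs (at 19 and 38), and in Lig1 the only one (at 26), lay just after the start site. Mcm7 had 1 motif on either side of it, and the only one of Cdc6 lay before it. Lig1 and Mcm7 also had windows at other start sites, which held no motif.

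In the pluripotent stem cell-like cells, the replication genes were together higher after 10 further passages. Their summed level was 3388 CPM (interval 3383 to 3393) at time 1 and 4349 CPM (interval 4344 to 4353) at time 2, a log2 ratio of 0.36. With each cell thinned to 10000 UMIs, so that cells are compared at equal depth, the median cell had 33 UMIs of the 39 genes at time 1 (10th to 90th percentile 22 to 46) and 43 at time 2 (31 to 57). The cells of the time points thus overlapped widely. Taken singly, 36 of the 39 genes had a log2 ratio above 0 and 3 below. Over 1.2-fold higher at time 2 were 19 genes and over 1.2-fold lower 0 genes, whereas among all 8832 genes tested 20.9% were over 1.2-fold higher and 30.4% lower. The median log2 ratio was 0.25 over the 39 genes and -0.05 over all genes tested. Single-gene ratios are of CPM plus 1, and all 39 genes passed the minimum of 5 CPM over both libraries. Scaling by trimmed means (TMM) in place of total UMIs moved the median of all genes by 0.16, and the higher share of all calls from 40.7% to 63.1%. It gave 30 replication genes higher and 0 lower, beside 34.3% and 20.01% of all genes tested.

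Over all pluripotent stem cell-like cells, subunits of the MCM2-7 helicase, which unwinds DNA at the fork, held the 3 highest ratios. Mcm5 (ENSMUSG00000005410, chr8:75109569-75128439, GRCm38) stood at 119 CPM at time 1 (interval 118 to 120.4) and 221 CPM at time 2 (interval 219.9 to 222). This was the highest log2 ratio of the 39, 0.88 (counting interval 0.87 to 0.90), and the share of thinned cells with an Mcm5 UMI was 66.5% and 86.9%. Mcm3 (chr1:20802968-20820312) stood at 212 CPM at time 1 (interval 211 to 213) and 383 CPM at time 2 (interval 382 to 385), with a log2 ratio of 0.85. Mcm6 (chr1:128331590-128359664) stood at 152 CPM at time 1 (interval 151 to 153) and 256 CPM at time 2 (interval 255 to 257), with a log2 ratio of 0.75. At time 2, Mcm3 had passed Pcna as the gene with the most UMIs among the 39. Mcm7 stood at 197 CPM at time 1 and 281 CPM at time 2 (0.51). The other 2 subunits differed less, with log2 ratios of 0.32 for Mcm4 and 0.25 for Mcm2. The subunits of 1 complex, which enter it in equal numbers, thus spanned ratios from 0.25 to 0.88 over all cells. Mcm5, Mcm3 and Mcm6 lie on chromosomes 8 and 1, whose gains were called more often at time 2 (below). In no-gain cells of high X dosage their ratios were 0.47, 0.43 and 0.39. Gins2 (0.60), Pola1 (0.57), Mcm7 (0.53), Lig1 (0.52) and Pold3 (0.48) lay above all 3 there. In those of low X dosage the 3 had 0.58, 0.37 and 0.30, with Mcm5 again the highest of the 39.

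**Figure D1:**
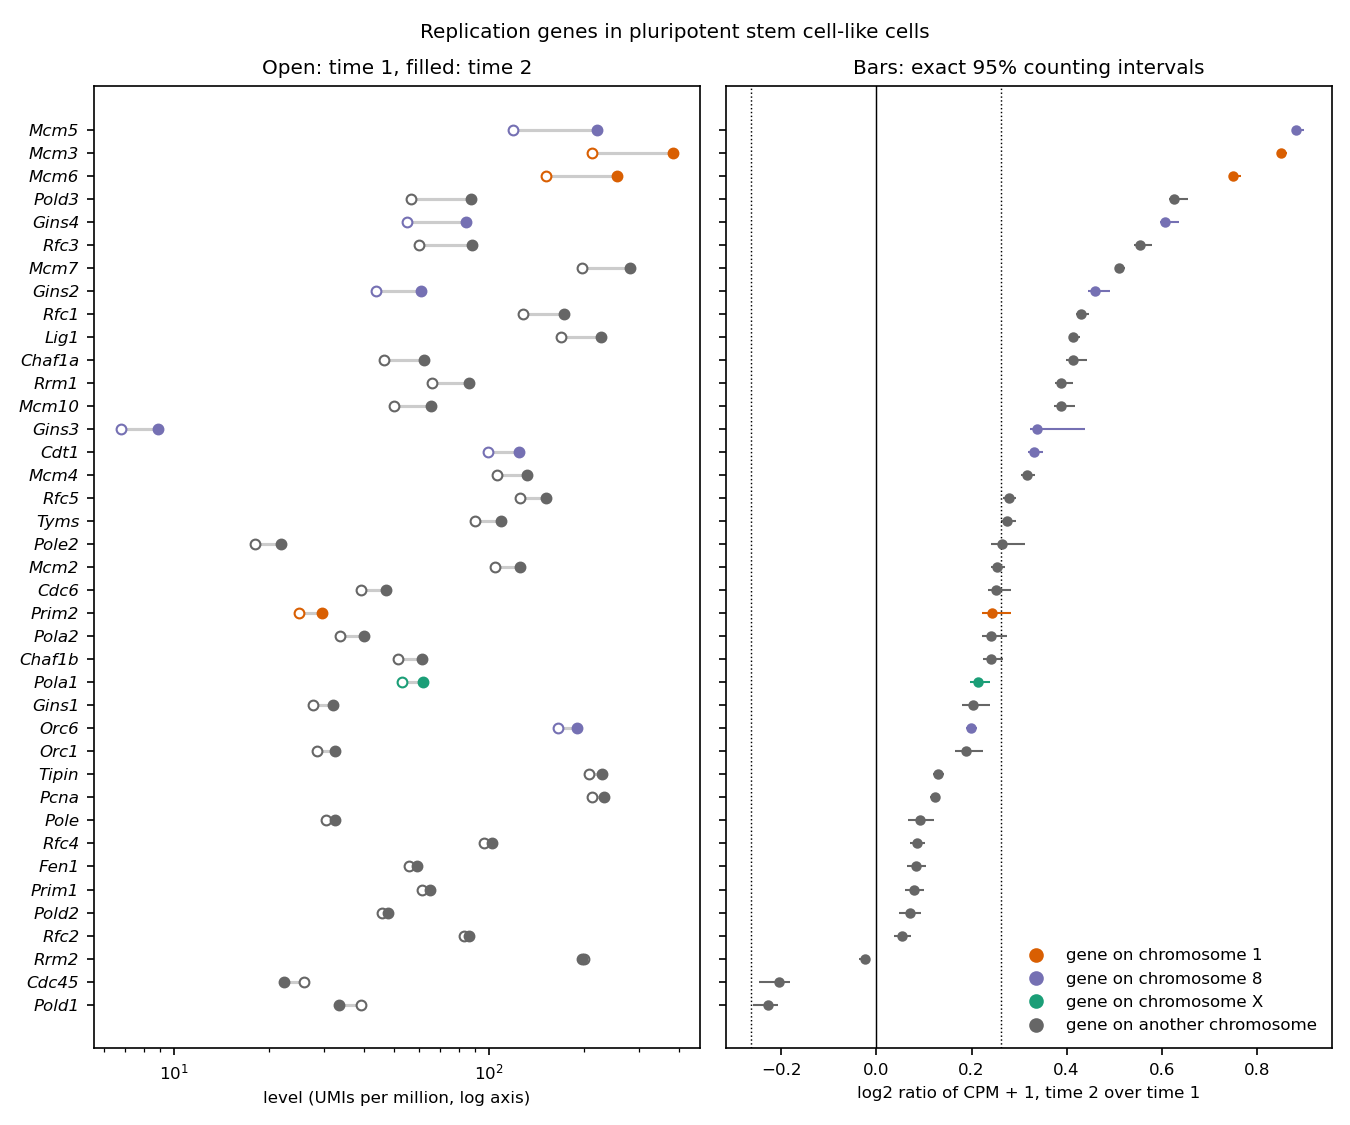
Level of each of the 39 replication genes in pluripotent stem cell-like cells of the 2 libraries (left, CPM on a log axis) and its log2 ratio of CPM plus 1, time 2 over time 1, with exact 95% counting intervals (right; dotted lines at 1.2-fold), coloured by chromosome. Mcm5, Mcm3 and Mcm6 stand apart at the top with ratios of 0.88, 0.85 and 0.75, and only Rrm2, Cdc45 and Pold1 lie below 0. Those top genes are on chromosomes 8 and 1, and their ratios were smaller in cells without a called gain.

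Among the genes that turn the loaded helicase into an active one, 3 of the 4 GINS genes were over 1.2-fold higher over all cells and Cdc45 was not. Gins4 stood at 55.0 CPM at time 1 (interval 54.4 to 55.7) and 84.3 CPM at time 2 (interval 83.7 to 84.9), a log2 ratio of 0.61. Gins2 stood at 43.8 CPM at time 1 and 60.6 CPM at time 2 (0.46), and Gins3 at 6.80 CPM at time 1 and 8.85 CPM at time 2 (0.34). Gins3 had the fewest UMIs of the 39 genes in every group of cells. Gins1, the 1 GINS gene that is not on chromosome 8, had a log2 ratio of 0.20, under the limit. Within the clusters described below, Gins2 lay between -0.13 and 0.23, and Gins1 between -0.18 and 0.20. In no-gain cells of high and low X dosage, Gins1 had 0.34 and 0.26. Gins2 had 0.60 and 0.17 there, Gins3 0.17 and -0.09, and Gins4 0.31 and 0.31. Mcm10, which helps to start unwinding, had a ratio of 0.39 over all cells. Cdc45, which joins MCM2-7 and GINS in the active helicase, stood at 25.8 CPM at time 1 (interval 25.4 to 26.2) and 22.2 CPM at time 2 (interval 21.9 to 22.5), a log2 ratio of -0.21. Its direction depended on the cells compared, with ratios from -0.09 to 0.15 in the clusters, and of 0.12 and -0.07 in no-gain cells of high and low X dosage. The loading factors were closer to each other over all cells: Cdt1 had a ratio of 0.33, Cdc6 0.25, Orc6 0.20 and Orc1 0.19. Cdt1 and Orc6 are on chromosome 8. In no-gain cells of high and low X dosage, Cdt1 had -0.07 and 0.08, and Cdc6 0.10 and 0.19. Orc6 had 0.01 and 0.03 there, and Orc1 0.01 and 0.09.

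The polymerase genes did not go one way. Pold3, an accessory subunit of polymerase delta, stood at 56.5 CPM at time 1 (interval 55.8 to 57.1) and 87.7 CPM at time 2 (interval 87.1 to 88.3), the fourth highest ratio (0.63). Pold1, the catalytic subunit of the same polymerase, stood at 39.2 CPM at time 1 (interval 38.6 to 39.7) and 33.3 CPM at time 2 (interval 33.0 to 33.7), the lowest ratio of the 39 (-0.23, counting interval -0.26 to -0.21). The share of thinned cells with a UMI was 41.5% and 57.5% for Pold3, and 32.5% and 27.2% for Pold1. Pold2 differed little (0.07). For polymerase epsilon, the accessory subunit Pole2 had a ratio of 0.26 and the catalytic subunit Pole 0.09. The genes of polymerase alpha and primase lay between 0.08 for Prim1 and 0.24 for Prim2.

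The clamp and its loader also differed. Pcna, which encodes the clamp, stood at 213 CPM at time 1 and 232 CPM at time 2 (0.12). Of the loader genes, Rfc3 (0.55) and Rfc1 (0.43) were highest, Rfc5 had 0.28, and Rfc4 (0.09) and Rfc2 (0.05) differed least. Lig1, the ligase that seals lagging-strand pieces, stood at 169.6 CPM at time 1 and 226 CPM at time 2 (0.41), while Fen1, the nuclease that trims them, had a ratio of 0.08. In nucleotide supply, the ribonucleotide reductase subunit Rrm1 had a ratio of 0.39, and Tyms, which makes thymidylate, 0.28. Rrm2, the other reductase subunit, stood at 200.2 CPM at time 1 and 197 CPM at time 2 (-0.02), and was 1 of the genes below 0. Under TMM scaling 2 genes were below 0. The chromatin assembly factor subunits Chaf1a and Chaf1b had ratios of 0.41 and 0.24, and Tipin, which stabilises forks, 0.13.

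The make-up of the pluripotent stem cell-like cells differed between the libraries, and the size of the difference between time points depended on which cells were compared. A Gm9-led cluster held 69.4% of them at time 1 and 5.39% at time 2, and a Halr1-led cluster 1.496% and 79.9%. Within the clusters, the log2 ratios of the summed level were 0.14 (Gm9-led), 0.16 (Pramel7-led), 0.12 (Zp3-led) and 0.23 (Halr1-led), each smaller than 0.36 over all cells. The genes over 1.2-fold higher numbered 9 in the Gm9-led cluster (13.6% of all genes tested there), 11 in the Pramel7-led cluster (11.6%), 9 in the Zp3-led cluster (13.1%) and 14 in the Halr1-led cluster (14.4%). Ratios below 0 were found for 10, 10, 14 and 10 genes in these clusters, against 3 over all cells. Chromosome gains differed as well: cells with no gain of chromosome 1, 8 or 14 (called as described below) were 84.0% of the pluripotent stem cell-like cells at time 1 and 18.6% at time 2. In cells with no gain and high X dosage the summed level was 0.25 higher on the log2 scale, with 17 genes higher (20.3% of all genes tested), and in those with no gain and low X dosage 0.23 higher, with 14 genes higher (18.9%).

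Mcm5, Mcm6, Mcm7, Pold3 and Lig1 were over 1.2-fold higher in each of the 4 clusters and in both no-gain groups (5 of 39 genes, beside 3.13% of the genes tested in all 6). Of these 5, Mcm7 varied least between clusters, with log2 ratios of 0.47, 0.52, 0.60 and 0.57 in the clusters, against 0.51 over all cells. Mcm5 had 0.36, 0.28, 0.39 and 0.60, all below its 0.88 over all cells. Mcm5 is on chromosome 8 and Mcm7 on chromosome 5. In both no-gain groups, 12 of 39 genes were over 1.2-fold higher, beside 13.7% of the genes tested in both, and 8 of the 12 are on chromosomes other than 1 and 8. The 9 genes on chromosomes 1 and 8 had a median log2 ratio of 0.46 over all cells, 0.31 in no-gain cells of high X dosage and 0.17 in those of low X dosage. For the other 30 genes the medians were 0.24, 0.18 and 0.16. Pcna was higher at time 2 over all cells (0.12) but lower within every cluster, with log2 ratios from -0.28 to -0.14. Tipin (0.13 over all cells) was also below 0 in every cluster, between -0.17 and -0.01, and Cdt1 (0.33 over all cells) lay between -0.11 and 0.09 in the clusters. Whether the make-up of the libraries accounts for the remaining differences was not tested.

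**Figure D2:**
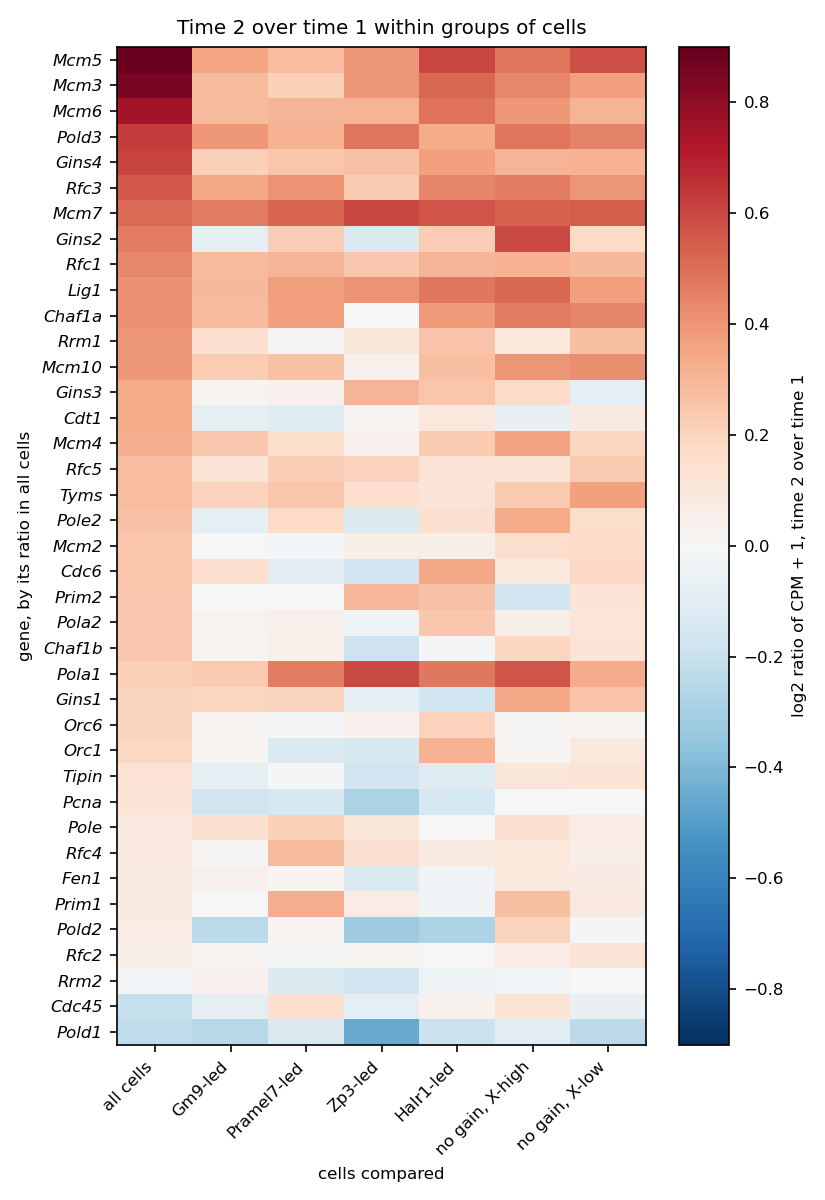
Log2 ratio of CPM plus 1, time 2 over time 1, for each replication gene (genes ordered by the ratio in all pluripotent stem cell-like cells) in all those cells, in each of their 4 clusters, and in cells without a called gain split by X dosage. The strong ratios of Mcm5, Mcm3 and Mcm6 in all cells are smaller inside each group, Mcm7 keeps ratios of 0.47 to 0.60 in the clusters, and Pcna is below 0 in all 4.

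Other cell cycle genes were compared between the time points in the same cells. Of 43 further replication genes, all tested, 11 were over 1.2-fold higher and 3 lower, beside 20.9% and 30.4% of all genes, and their summed level differed by a log2 ratio of 0.33. The origin subunit Orc2 stood at 55.9 and 108 CPM (0.94), and the histone chaperones Nasp and Supt16 had ratios of 0.79 and 0.75. The single-strand DNA binding subunit Rpa3 stood at 100.2 and 42.5 CPM (-1.22), and the small polymerase delta subunit Pold4 had a ratio of -0.82. Dck, a nucleoside kinase, had -0.27. Mitosis genes were nearly level (summed 0.09, with 7 of 40 higher and 3 lower): Cenpf had 0.56, Aspm 0.51 and Ckap2 0.40, while Anln had -0.40, Ccnb2 -0.31 and Cenpa -0.29. Of 22 regulators of the step from G1 to S phase, 20 passed the minimum, with 7 higher and 4 lower. Among them the cyclin Ccnd2 stood at 2.43 and 22.7 CPM (2.79), Ccnd1 had 0.94 and E2f4 0.64. Cdkn2a, which encodes a cyclin-dependent kinase inhibitor and the p53 regulator Arf, which these counts per gene do not separate, stood at 52.03 and 20.5 CPM (-1.30), Rb1 had -0.98 and Cdkn1a -0.40. Of 67 replication-dependent histone genes, 28 passed, with 21 higher and 2 lower. Hist1h1b stood at 119 and 405 CPM (1.76), Hist1h2an had 2.18 and Hist2h2ac 1.58, while Hist1h2ap had -1.27, Hist1h2bc -0.28 and Hist1h4i -0.23. Most histone mRNAs of this kind lack the poly(A) tail by which the method captures RNA, which limits what their UMIs show. Of the genes named here, Orc2, Cenpf and Aspm are on chromosome 1, E2f4 and Ckap2 on 8, and Supt16 and Rb1 on 14. Genes of chromosomes 1, 8 and 14 held out of the gain calls (below) had medians of 0.28, 0.17 and 0.20. Held-out genes of other chromosomes had -0.09. The part of gains in the ratios of these lists was not tested.

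Across cell states, the replication genes stood apart in 1 class, the fibroblast-like cells (385 at time 1 and 660 at time 2), which express feeder markers (Col1a1 at 925 and 608 CPM). Irradiation stops feeders from dividing. Their summed level was 1324 CPM (interval 1309 to 1338) at time 1 and 2071 CPM (interval 2058 to 2084) at time 2, 39.1% and 47.6% of the level in pluripotent stem cell-like cells (log2 ratios of -1.36 and -1.07). At time 1 all 39 genes were below 0, and the 38 that passed the minimum were over 1.2-fold lower, beside 43.0% of all genes tested. At time 2 all 39 were over 1.2-fold lower, beside 41.7%. TMM scaling moved the median of all genes by -0.14 and -0.13 in these comparisons. Pluripotency genes were also present in these cells: Pou5f1 stood at 31.9% and 41.3% of its level in pluripotent stem cell-like cells, and Dppa5a at 23.6% and 38.3%. All 12 pluripotency markers were above 0 in them, with summed levels of 2812 CPM at time 1 and 2836 CPM at time 2. In barcodes of 500 to 1000 UMIs, taken as free RNA, Pou5f1 stood at 954 and 818 CPM and the 39 genes summed to 3708 and 3932 CPM. How much of the replication gene UMIs in fibroblast-like cells came from stem cell RNA was not tested.

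The genes lowest in fibroblast-like cells at time 1 were Pola1, Mcm3, Lig1, Mcm10 and Prim1. Pola1, the catalytic subunit of polymerase alpha, stood at 53.0 CPM in the pluripotent stem cell-like cells and 14.8 CPM in the fibroblast-like cells (log2 ratio -1.77, and -1.38 at time 2). Mcm3 stood at 212 CPM in the pluripotent stem cell-like cells and 64.0 CPM in the fibroblast-like cells (-1.71 and -1.43). Lig1 had -1.66 and -1.28, Mcm10 -1.66 and -1.35, and Prim1 -1.63 and -1.06. The pluripotent stem cell-like cells of time 1 were 56.3% X-high, and X-linked Pola1 had 0.62 in X-high over X-low cells (below). Of those of time 2, 18.6% had no gain, and Mcm3, on chromosome 1, had 0.62 with a gain of 1 alone (below). The part of X dosage and gains in the places of these genes was not tested. At the other end stood Gins2, with 43.8 CPM in the pluripotent stem cell-like cells and 27.9 CPM in the fibroblast-like cells (-0.63 and -0.50). Rfc2 (-0.88), Gins3 (-0.89), Gins4 (-0.90) and Prim2 (-0.98) came next. Gins3, at 6.80 and 3.20 CPM, is the gene that did not pass the minimum, and its place rests on the added 1. At time 2 the least lowered were Gins2, Rrm1 (-0.64), Rrm2 (-0.68), Rfc2 (-0.70) and Tyms (-0.72). At 10000 UMIs, an Mcm3 UMI was seen in 38.7% of fibroblast-like cells at time 1 and 49.5% at time 2, against 84.3% and 95.8% of pluripotent stem cell-like cells. The fibroblast-like cells were uneven: their 10th to 90th percentile of replication gene UMIs ran from 3 to 31 at time 1 and from 2 to 39 at time 2, with medians of 10 and 14. The summed mitosis genes had log2 ratios of -1.48 and -1.08, with all 40 over 1.2-fold lower at both times. Replication-dependent histone genes summed to -0.20 and -0.57, but their medians were -1.02 and -1.27, with 12 of 22 lower and 10 higher at time 1 and 19 of 27 lower and 6 higher at time 2. The regulators of the step from G1 to S summed to higher levels (1.02 and 0.91), while their medians were -0.51 and -0.46. Of 20 of these regulators that passed the minimum, 13 were lower and 4 higher at time 1, and 11 lower and 6 higher at time 2, and among all genes tested 36.9% and 36.7% were over 1.2-fold higher.

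**Figure D3:**
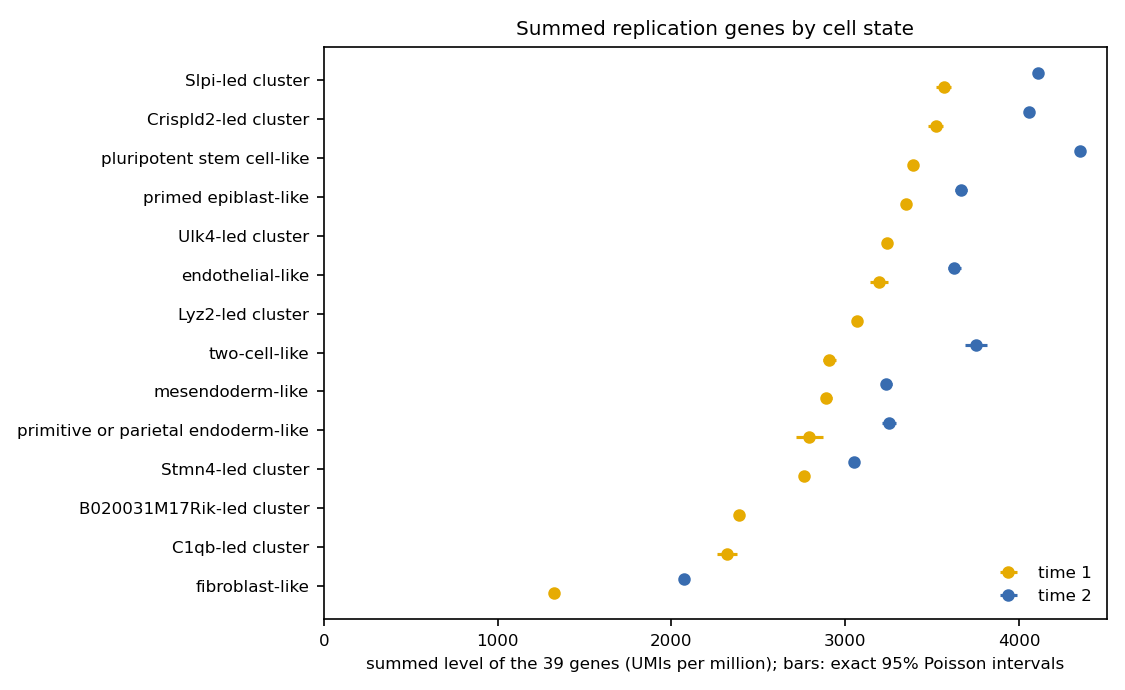
Summed level of the 39 replication genes (CPM, with exact 95% Poisson intervals) in each group of cells with at least 40 cells, at time 1 and time 2. Fibroblast-like cells lie lowest at 1324 and 2071 CPM, and the other groups lie between 2319 CPM (C1qb-led cluster, time 1) and 4349 CPM (pluripotent stem cell-like, time 2).

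All other groups had summed levels of at least 0.685 times that of pluripotent stem cell-like cells in the same library. At time 1, primed epiblast-like cells, which resemble the epiblast after implantation, had a summed level close to that of pluripotent stem cell-like cells (log2 ratio -0.02), and at time 2 a lower one (-0.25). Mesendoderm-like cells had -0.23 and -0.43, primitive or parietal endoderm-like cells -0.28 and -0.42, endothelial-like cells -0.09 and -0.26, and two-cell-like cells, which express genes of the 2-cell embryo, -0.22 and -0.21. At time 1 the counting intervals of the summed level overlapped between primitive or parietal endoderm-like (2714 to 2874 CPM), mesendoderm-like (2860.0 to 2922 CPM) and two-cell-like cells (2870.3 to 2946 CPM). At time 2 they overlapped between mesendoderm-like (3205 to 3268 CPM) and primitive or parietal endoderm-like cells (3212 to 3293 CPM). The interval of primed epiblast-like cells at time 2 (3633 to 3699 CPM) overlapped those of endothelial-like (3591 to 3665 CPM) and two-cell-like cells (3688 to 3815 CPM). The order of such neighbours is not resolved. Single genes differed more than the sum. Gins2 was higher in endothelial-like cells (log2 ratios of 1.03 at time 1 and 0.45 at time 2) and primitive or parietal endoderm-like cells (0.44 and 0.35) than in pluripotent stem cell-like cells. In primed epiblast-like cells Gins2 had 0.77 at time 1 and 0.07 at time 2. Cdt1, the helicase loader, was lower in mesendoderm-like cells (-0.997 and -1.40), as was Pola1 (-0.97 and -1.06), and Pola1 was lower in primitive or parietal endoderm-like cells too (-1.13 and -1.26). Cdc6 had 0.51 and 0.08 there. Pola1 is on the X chromosome, and Cdt1 and Gins2 are on chromosome 8. Gains and X dosage (below) were compared only among pluripotent stem cell-like cells, and their part in these single-gene values was not tested. Pcna had the most UMIs of the 39 genes at time 1 in pluripotent, primed epiblast-like, fibroblast-like, two-cell-like, mesendoderm-like and endothelial-like cells. At time 2, Mcm3 had the most in these classes except mesendoderm-like cells, where Mcm7 did (237 CPM). Rrm2 had the most in primitive or parietal endoderm-like cells at time 1 (180.1 CPM), and Mcm3 at time 2 (241 CPM).

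Chromosome gains were read from the cells' own RNA, by a method that did not use the replication genes. For each cell, the share of UMIs from informative genes of a chromosome was divided by its median in pluripotent stem cell-like cells of time 1, and a ratio of at least 1.3 was called a gain and one under 1.2 no gain. Such a call is a rise in a chromosome's transcripts and not a karyotype. Of each chromosome's informative genes, 1 in 5 was held out of the calls and used to read dosage independently. At time 2, 2834 pluripotent stem cell-like cells had no gain of chromosome 1, 8 or 14, 715 a gain of chromosome 1 alone, 1597 of chromosome 8 alone, 3248 of 1 and 8, 212 of 1 and 14, and 2718 of 1, 8 and 14. At time 1, 7521 had no gain, 696 a gain of chromosome 8 alone and 117 of chromosome 1 alone. Left out of the gain classes were 3850 cells (25.3%) at time 2 and 581 (6.49%) at time 1. Those of time 2 had median ratios of 1.38 for chromosome 1 and 1.28 for chromosome 8. Every gain class of a library is compared with the same no-gain cells, so the comparisons are not independent. The no-gain cells of time 2 were 79.9% X-high, whereas the cells with a gain of chromosome 1 or 8 alone were 3.64% and 6.26% X-high, and those with gains of 1 and 8, 1 and 14, and 1, 8 and 14 were 1.11%, 4.25% and 0.405% X-high. Values within X-low cells, of which 421 had no gain at time 2, are therefore also given.

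Of the replication genes, 3 are on chromosome 1 and 6 on chromosome 8. Cells with a gain had slightly higher summed levels: at time 2 the no-gain cells had 3988 CPM, cells with a gain of chromosome 1 alone 4195 CPM (log2 ratio 0.07), of 8 alone 4261 CPM (0.10), of 1 and 8 4486 CPM (0.17), of 1 and 14 4234 CPM (0.09) and of 1, 8 and 14 4636 CPM (0.22). At time 1, cells with a gain of chromosome 8 alone had 3713 CPM and no-gain cells 3361 CPM (0.14). These sums include the genes on the gained chromosomes. With a gain of chromosome 1 alone at time 2, the rises of its 3 genes (below) together exceeded that of the sum. With a gain of 8 alone at time 2, those of its 6 genes made up most of it. Among X-low cells alone the log2 ratios of the summed level were 0.0845, 0.12, 0.19, 0.115 and 0.23 for these 5 classes of time 2, and 0.15 for the gain of 8 at time 1. The genes over 1.2-fold higher were 3 of 39 with a gain of chromosome 1 at time 2 (13.1% of all genes tested), 8 with a gain of 8 at time 2 (14.5%), 9 with a gain of 8 at time 1 (10.4%) and 11 with a gain of 1, 8 and 14 (19.6%). Those over 1.2-fold lower were 3 (23.2% of all genes tested), 1 (21.1%), 2 (17.8%) and 2 (25.3%) in the same comparisons. TMM scaling moved the higher share of all calls from 36.1% to 46.6% for the gain of chromosome 1, from 40.8% to 53.8% for that of 8 at time 2, and from 36.9% to 50.3% for that of 8 at time 1. The replication genes over 1.2-fold higher were then 6 of 39 (16.8% of all genes tested), 12 (19.4%) and 11 (14.1%).

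With a gain of chromosome 1, all 3 genes on it were higher. Under TMM scaling 6 replication genes were over 1.2-fold higher at time 2, these 3 included. With scaling by total UMIs, these 3 were the only replication genes over 1.2-fold higher in that comparison. Over 1.2-fold lower were Pola1, Gins2 and Cdc45, with log2 ratios of -0.57, -0.55 and -0.37, and among X-low cells alone 0.18, -0.11 and -0.16. Mcm3 stood at 279 CPM in no-gain cells and 429 CPM in cells with the gain at time 2, a log2 ratio of 0.62. Mcm6 stood at 195 and 285 CPM (0.54), and the primase subunit Prim2 at 22.9 and 33.7 CPM (0.54). Their median of 0.54 compares with 0.41 over 93 held-out genes of chromosome 1. Among X-low cells alone the ratios were 0.64, 0.57 and 0.33, and at time 1, in 117 cells with the gain, 0.73, 0.57 and 0.30. At time 1, Pold2 on chromosome 11 was over 1.2-fold higher too (0.31), so that 4 genes were higher (11.1% of all genes tested) and 2 lower (21.3%), Pola1 and Cdc45. At time 2, the 36 genes on other chromosomes had a median of 0.01 and ranged from -0.57 for the X-linked Pola1 to 0.23.

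With a gain of chromosome 8 alone, 5 of the 6 genes on it were over 1.2-fold higher at time 2. Cdt1 stood at 90.8 CPM in no-gain cells and 142 CPM in cells with the gain, a log2 ratio of 0.64. Mcm5 stood at 163 and 227 CPM (0.48), Gins4 at 65.8 and 90.8 CPM (0.46), and Orc6 at 166 and 211 CPM (0.35). Gins3 had a ratio of 0.28. Gins2 was level, at 62.5 and 62.5 CPM, but among X-low cells alone its ratio was 0.42, and at time 1 0.45. Among X-low cells of time 2 all 6 were over 1.2-fold higher, beside 7.33% of all genes tested there, with a median of 0.43, close to the 0.42 of held-out chromosome 8 genes there. At time 1 the median was 0.48 for the 6 genes, with values of 0.65 for Cdt1, 0.50 for Mcm5, 0.52 for Gins4 and 0.46 for Orc6, and 0.48 for 96 held-out genes. The 33 genes on other chromosomes had a median of 0.02 at time 2. Some of them were also over 1.2-fold higher. They were among the 8 replication genes called at time 2 (14.5% of all genes tested) and the 9 called at time 1 (10.4%).

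**Figure D4:**
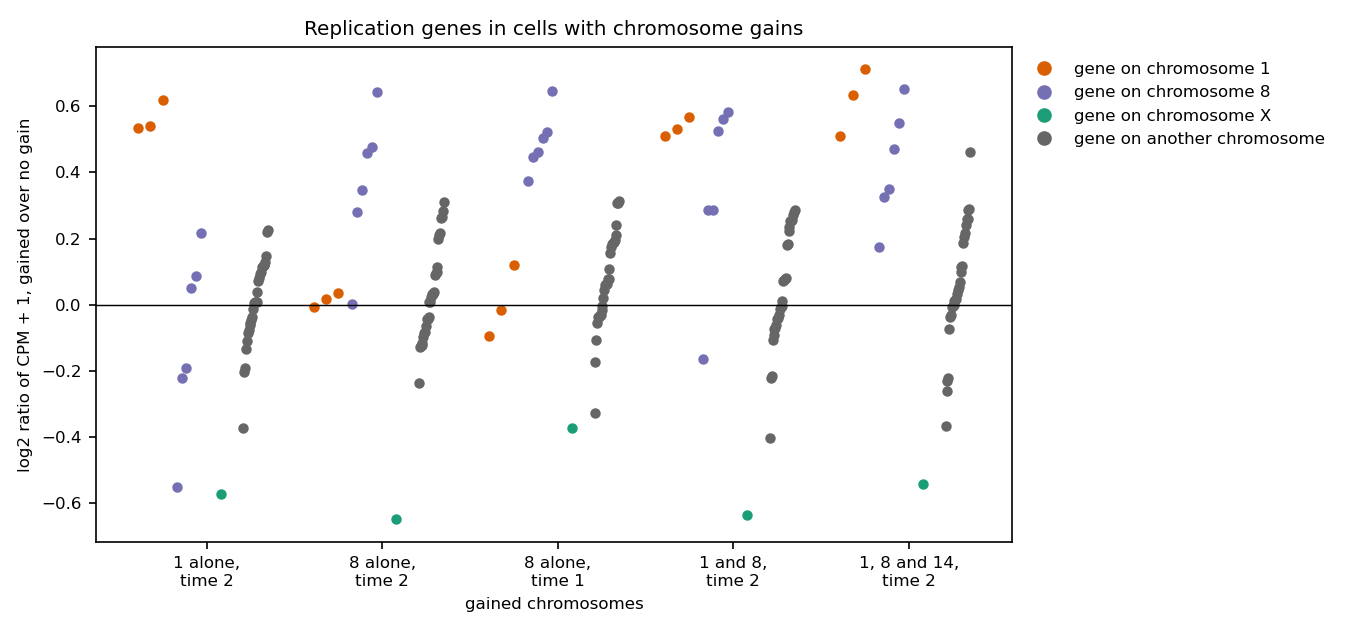
Log2 ratio of CPM plus 1 of each replication gene, cells with the gain named on the x axis over no-gain cells of the same library, coloured by the gene's chromosome. Genes on chromosome 1 lie between 0.54 and 0.62 where chromosome 1 alone is gained at time 2, and between -0.09 and 0.12 where chromosome 8 alone is gained at either time. Genes on chromosome 8 lie between 0.28 and 0.64 with a gain of 8 alone at time 2, except Gins2 at 0.00.

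Within the MCM2-7 complex, the subunits on a gained chromosome had higher ratios than the others. With a gain of chromosome 1 at time 2, the 2 MCM2-7 subunits on it had a mean log2 ratio of 0.58 and the other 4 one of 0.03. With a gain of 8, Mcm5 had 0.48 and the other 5 subunits a mean of -0.03. With gains of 1 and 8, Mcm3, Mcm5 and Mcm6 had a mean of 0.55, against -0.03 for Mcm2, Mcm4 and Mcm7, and with gains of 1, 8 and 14 the means were 0.67 and 0.12. Among X-low cells alone these 4 pairs of means were 0.60 and 0.05, 0.44 and 0.01, 0.55 and 0.01, and 0.66 and 0.15. Mcm2, Mcm4 and Mcm7 are on chromosomes 6, 16 and 5. The GINS complex has 3 of its 4 subunits on chromosome 8. With a gain of 8, these 3 had a mean log2 ratio of 0.45 at time 1 (lowest 0.37), with Gins1 at -0.04, and a mean of 0.25 at time 2 (lowest 0.00), with Gins1 at -0.11. With gains of 1 and 8 at time 2 the mean was 0.22, and Gins2, at -0.16, lay below Gins1, at -0.04. With gains of 1, 8 and 14 the mean was 0.33 and Gins1 had -0.23. Among X-low cells of time 2 alone, the means of the 3 were 0.48, 0.43 and 0.55 in these classes and Gins1 had -0.10, -0.02 and -0.23, while Gins2 had 0.42, 0.25 and 0.59. No replication gene is on chromosome 14. On chromosome 11, Cdc6 and Pold2 had log2 ratios of 0.01 and -0.08 with a gain of 8 at time 2, and of -0.33 and 0.31 at time 1. Pluripotency markers, with all 12 above 0 in each class, differed between the same classes: their summed level at time 2 was 11205 CPM without a gain, 8346 CPM with a gain of 1, 7083 CPM with a gain of 8 and 4571 CPM with gains of 1, 8 and 14. These sums mostly followed 1 gene, Dppa5a, at 8230, 5997, 4737 and 1864 CPM in these classes. Pou5f1 stood at 854, 802, 753 and 825 CPM. The part of these markers in the replication gene values was not tested. The lines behind each class were not identified here, so that the gain and the line cannot be told apart.

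Pola1, on the X chromosome (chrX:93304767-93632155), was the replication gene that differed most with X dosage. Cells without Y UMIs were divided by the share of UMIs from X-linked genes other than Pola1 into X-high cells, with at least 1.2 times the median of Y-positive cells (5047 at time 1 and 2710 at time 2) and X-low cells (2626 and 10561). At time 1, Pola1 stood at 61.2 CPM in X-high cells and 39.5 CPM in X-low cells, a log2 ratio of 0.62 (counting interval 0.59 to 0.67). At time 2 it stood at 87.6 and 55.7 CPM, a ratio of 0.64 (0.62 to 0.68). Among no-gain cells alone the ratios were 0.67 and 0.90. X-linked genes had median ratios of 0.75 (323 genes) and 0.83 (306 genes), and autosomal genes of 0.00 and 0.02. The classes were themselves called from X-linked genes, so the X-linked medians are high by construction. They are not an independent reading of X dosage. The genes over 1.2-fold higher in X-high cells were 1 of 39 at time 1 (16.2% of all genes tested) and 2 of 39 at time 2 (24.5%). Those over 1.2-fold lower were 2 of 39 at time 1 (11.1% of all genes tested) and 8 of 39 at time 2 (16.1%), where Cdt1 had -0.53, Mcm3 -0.52 and Mcm5 -0.50. The X-low cells of time 2 had median chromosome ratios of 1.405 for chromosome 1 and 1.34 for chromosome 8, on which these genes lie, against 0.997 and 0.966 in the X-high cells. Among no-gain cells of time 2, Mcm3 had 0.02 and Mcm5 -0.07. In those cells 4 of 39 genes were higher (19.4% of all genes tested) and 3 lower (15.2%), and in no-gain cells of time 1, 1 was higher (15.3%) and 0 lower (11.5%). TMM scaling moved the median of all genes by -0.13 at time 2, and the higher share of all calls from 59.3% to 45.5% at time 1 and from 60.3% to 35.3% at time 2. It gave 1 replication gene higher and 4 lower at time 1, beside 13.0% and 15.7% of all genes tested, and 1 higher and 19 lower at time 2, beside 15.6% and 28.5%. The summed level differed by -0.05 at time 1 and -0.15 at time 2, and among no-gain cells by 0.00 and 0.02. Among no-gain cells of time 2, Gins2 was higher in X-high cells (0.49) and Cdt1 lower (-0.28).

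From cell to cell, the replication genes went weakly together. In pluripotent stem cell-like cells thinned to 10000 UMIs, each gene was correlated with the summed level of the other 38, as Pearson's r of log counts. All 39 coefficients were above 0 at both times, with a median of 0.112 over 8958 cells at time 1 and 0.115 over 15232 cells at time 2. The same measure over all other genes seen in at least 10% of cells, set against all 39 genes summed, had a median of 0.007 at both times and a 95th percentile of 0.089 and 0.083, above which lay 24 and 23 of the 39 genes. Cells of 1 library share its depth and its free RNA, and these values describe the libraries only. The cells of all clusters, gain classes and X classes were pooled here. The part of differences between these groups in the coefficients was not tested. The highest coefficients at time 1 were those of Pcna (0.28), Rrm2 (0.27), Mcm3 (0.23), Tipin (0.22) and Mcm5 (0.21), which at time 2 had 0.21, 0.25, 0.26, 0.14 and 0.22. The lowest were those of Prim2 (0.01), Pold1, Gins3 and Gins1 (0.03 each) and Rfc4 (0.04). Most of these genes have few UMIs, where a weak correlation says little, but Rfc4 stood at 96.4 CPM at time 1. Cdc6, at 39.3 CPM beside 39.2 CPM for Pold1, had a coefficient of 0.17. The part of low counts in these coefficients was not tested. The 10 other genes most like the summed replication genes at time 1 were Ptma (0.33, and 0.34 at time 2), Nasp (0.28, 0.30), Srsf3 (0.28, 0.22), Hspd1 (0.27, 0.34), Slbp (0.26, 0.27), H2afz (0.25, 0.24), Ccne1 (0.25, 0.27), Ranbp1 (0.25, 0.14), Nolc1 (0.24, 0.25) and Set (0.24, 0.17).

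The level of the replication genes was also set against other cell cycle genes from cell to cell. Pluripotent stem cell-like cells were put into deciles by their summed mitosis genes, and separately by their summed histone genes. The mean number of replication gene UMIs per 10000 was highest in the third decile of mitosis level at time 1 (36.8) and lowest in the last (29.6), and at time 2 it was highest in the second decile (45.9) and lowest in the last (40.9). From the first to the last decile of histone level it was 30.004 and 36.9 at time 1, and 41.4 and 47.9 at time 2. Every decile of time 2 lay above every decile of time 1. Before thinning, the first and last deciles of mitosis level had median depths of 36438.5 and 58615 UMIs at time 1. At time 2 these were 42565 and 58556.5 UMIs. The part of cell depth in the fall along mitosis level was not tested. Single genes differed more than the sum. Cdc6, which loads the helicase in G1, had a log2 ratio of -0.97 between the last and first decile of mitosis level at time 1, and Gins2 one of -0.93. Chaf1b had -0.75 at time 1 and -0.82 at time 2, and Cdc45 -0.63 and -0.82. Pola1 was higher in the last decile at time 1 (0.34), and 27 of the 39 genes were lower there and 12 higher at time 1, beside 32.2% and 66.8% of all genes tested. At time 2, 26 were lower and 13 higher, beside 36.0% and 63.2%. Along histone level, 38 of 39 genes were higher in the last decile and 1 lower at time 1, beside 48.7% and 49.9% of all genes tested, and 31 were higher and 8 lower at time 2, beside 45.8% and 53.4%. In these counts higher and lower mean a ratio above or below 1, over genes with a mean of 5 CPM in the 2 deciles, which all 39 passed. Pcna had log2 ratios of 0.63 and 0.43, and Chaf1b of 0.62 and 0.76.

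**Figure D5:**
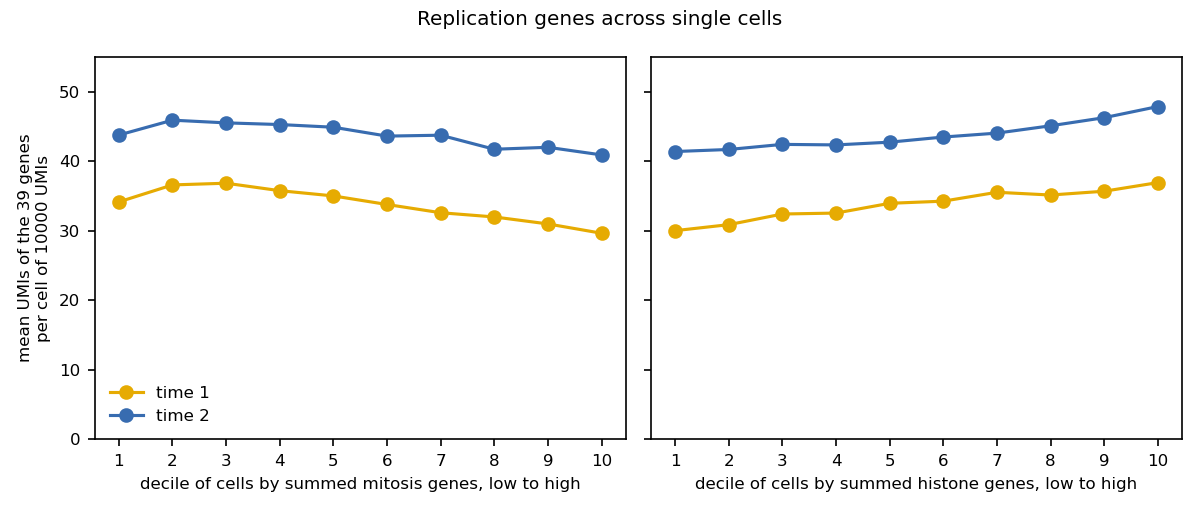
Mean UMIs of the 39 replication genes per cell of 10000 UMIs, in deciles of pluripotent stem cell-like cells ordered by their summed mitosis genes (left) and histone genes (right), at time 1 and time 2. At time 1 the values run from 36.8 in the third decile of mitosis level to 29.6 in the last and from 30.004 to 36.9 along histone level, and all time 2 values lie above those of time 1.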

How the data were processed

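The 2 libraries, 1 per time point, were grouped by the labels. Per the labels' protocols, cells were captured with 10x Chromium version 3.1 chemistry. Per the submitters' processing notes, bcl2fastq 2.20.0.422 and Cell Ranger 6.1.2 were used, with builds mm10 and GRCm38. The authors deposited UMI counts per gene and barcode, whole numbers and not normalised. The accompanying tag (LMO) libraries were not used here, nor by the authors, who name poor tagging in the labels' protocols. What the tags marked is not given in the sources used here. The files held 145288 and 52242 barcodes.

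Cells were barcodes with at least 18315 UMIs at time 1 and 18645 at time 2 (0.1 times the 99th percentile among the 20000 largest), 1000 genes or more and mitochondrial UMIs of 10% or less, which 25736 and 28249 barcodes met. Scrublet's automatic threshold marked 0 cells at time 1 and 2554 (9.04%) at time 2, so the 10% of cells with the highest doublet score were removed from each library (2574 and 2825). Cells were clustered in scanpy 1.11.5 on 2000 variable genes, 30 components, 15 neighbours and Leiden resolution 0.5 (igraph 0.11.9), which gave 17 clusters. A cluster took another cell type's name with at least 2 of its markers among the 10 leading genes and a median log2 fold of at least 1 for its markers, a rule set after the clusters were seen. Names rebuilt in this way may differ from the study's. Clusters that met no rule are called by their leading gene. Gains used 8862 informative autosomal genes, with chromosomes from GENCODE M21 (GRCm38).

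UMIs were summed over cells. Log2 ratios are of CPM plus 1, genes needed a mean of 5 CPM over both groups, and 1.2-fold set the counts. Counting intervals (Poisson for levels, 95%) are of the ratio without the added 1, and lie off centre for low genes. Genes were named as the 5 highest and 5 lowest in the time, fibroblast-like and correlation comparisons, those on chromosomes 1, 8, 11, 14 and X, the highest and lowest gene of each class, the 3 highest and 3 lowest of each list and the 10 best correlated other genes. The members and lists were chosen with earlier results of these data known. The scripts were tested on simulated data. Alternatives covered doublets, depth, thinning, scaling by edgeR 4.0.16 TMM factors, thresholds, pseudocount and cell sets. Other software was R 4.3.3 and Python 3.11.15 (pandas 2.3.3, numpy 2.4.6, scipy 1.17.1).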

Additional observations from a re-analysis of the deposited data

How the results depend on the processing

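With 1 library per time point, leaving out a replicate was not an option and no paired analysis was possible because each group has a single library. The processing was varied over 15 values and 102 alternatives, and no ratio or correlation changed direction. Counts of genes over 1.2-fold higher or lower have no direction, so their alternatives could not show such a change. Of the 102 alternatives, 51 stayed within the counting interval (or, for a count, within 1.5 times) and 51 moved outside it, which with so many UMIs is often a small change. Some alternatives were chosen after seeing the data: the Crispld2-led cluster, shared barcodes, no-gain groups and single clusters. Depth limits Gins3 and other low genes most, and single-library data leave the spread between cultures unknown.

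For time 2 over time 1, the summed log2 ratio of 0.36 was 0.3561 with doublets kept, 0.3562 with at least 30000 UMIs per cell, 0.32 without the 3 genes with most UMIs, 0.37 with thinned cells, 0.52 with TMM factors, 0.367 in all filtered cells, 0.363 with primed epiblast-like clusters and 0.34 with the Crispld2-led cluster. It was 0.25 and 0.23 in no-gain X-high and X-low cells, and 0.14, 0.16, 0.12 and 0.23 in the Gm9-led, Pramel7-led, Zp3-led and Halr1-led clusters. The 19 genes over 1.2-fold higher became 30 with TMM factors, 5 at a fold of 1.5, and 9, 11 and 9 in the first 3 of these clusters. The 0 genes lower became 1 with thinned cells, 3 in the Zp3-led and 1 in the Halr1-led cluster.

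For fibroblast-like over pluripotent stem cell-like cells, the log2 ratio of -1.36 at time 1 was -1.40 with at least 30000 UMIs, -1.25 with thinned cells and -1.51 with TMM factors. At time 2, -1.07 became -0.96 with doublets kept, -1.03 with at least 30000 UMIs, -1.01 without the 3 genes with most UMIs, -1.30 with thinned cells and -1.20 with TMM factors. With thinned cells, in which small and large cells count equally, the order of the time points was thus turned. The cause was not tested.

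For the gain of chromosome 1 at time 2, the summed log2 ratio of 0.07 was 0.039 without the 3 genes with most UMIs, 0.0807 with thinned cells, 0.13 with TMM factors and 0.0845 in X-low cells. For the gain of 8 at time 2, 0.10 became 0.0839 with doublets kept, 0.129 without those 3 genes, 0.12 with thinned cells, 0.16 with TMM factors, 0.072 at a gain threshold of 1.4 and 0.119 in X-low cells. At time 1, 0.14 became 0.135 with thinned cells and 0.21 with TMM factors. TMM factors moved the medians of the genes on the gained chromosome to 0.60 (chromosome 1), 0.47 (chromosome 8, time 2) and 0.54 (time 1). For Pola1 in X-high over X-low cells, TMM factors gave 0.56 at time 1 and 0.50 at time 2, where doublets kept gave 0.60 and no-gain cells alone 0.90. Thinning to 5000 UMIs lowered the median correlations to 0.071 and 0.075. The cause of these changes was not tested.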

Other observations

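Over all pluripotent stem cell-like cells the log2 ratio of Pola1, time 2 over time 1, was 0.21, under the limit of 1.2-fold. In no-gain X-high cells alone it was 0.57 and in no-gain X-low cells 0.33. Its level was 61.2 CPM at time 1 and 87.6 CPM at time 2 in X-high cells, and 39.5 and 55.7 CPM in X-low cells, while X-high cells were 56.3% of the pluripotent stem cell-like cells at time 1 and 17.8% at time 2. The Y-positive cells, 644 and 1078 in number, stood close to X-low cells, at 38.6 and 57.8 CPM.

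Gins2, the GINS gene that varied most between cell states, stood lower in the Crispld2-led cluster than in pluripotent stem cell-like cells (log2 ratios of -0.30 at time 1 and -0.86 at time 2) and higher in the Slpi-led cluster (0.89 and 0.49). In a B020031M17Rik-led cluster of 69 cells of time 1, Pola1 had a log2 ratio of -2.40 and Mcm3 of -1.56. These barcodes had a median of 352626 UMIs, against 50212 in pluripotent stem cell-like cells of time 1. Whether they are single cells was not tested.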
